A study of Mus musculus with 2 samples.

Results

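Transcription factors listed for urothelial identity were followed in single cells of mouse urothelial organoids. Whether each of them defines this identity was not tested, and the paper calls Foxq1 a candidate. The set held 10 genes, listed by symbol: Foxa1, Gata3, Elf3, Ehf, Grhl2, Grhl3, Klf4, Klf5, Foxq1 and Trp63, of 31053 gene IDs counted. Each was found once in both libraries, and each passed the minimum of 100 unique molecular identifiers (UMIs, counted RNA molecules) over both libraries. Levels were read in kept cells, meaning cells in which more than 800 genes were detected and mitochondrial transcripts took 12% of UMIs or less.

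The organoids were grown in Matrigel from bladder urothelial cells of wild-type (WT) C57BL/6 mice aged 8 to 10 weeks. Proliferative organoids (P) were kept in complete medium with EGF, Noggin, WNT3A, RSPO1 and LY2157299, which blocks the TGF-β receptor. Differentiated organoids (D) were moved from that medium to one from which all of these agents were left out, so P and D differ in 5 agents at once. Per the study's methods, WNT3A and RSPO1 were given as media conditioned by other cells, so P and D also differ in these media. There was 1 library per condition (10x 3′ chemistry), the number of animals behind each is not given in the sources used here, and differences between P and D could not be set against a spread between replicates.

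The urothelium is a stratified epithelium with basal, intermediate and luminal (umbrella) cells, and uroplakins are the membrane proteins that plaque the luminal surface. Its programme is run by factors that open or occupy enhancers of luminal genes, among them the forkhead factor FOXA1, the zinc finger factor GATA3, the epithelial ETS factors and the grainyhead and Krüppel-like factors. TP63 (Trp63 in the mouse) is the master factor of basal cells in stratified epithelia and is lost as urothelial cells become luminal.

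The P library kept 6818 of 8194 barcodes with 26681469 UMIs and the D library 4896 of 6975 with 20305621 UMIs, at medians of 3405.5 and 3227.5 UMIs per cell. Only 10 barcodes were shared between the libraries, 6 of them among kept cells. Levels are given as CPM, UMIs per 1000000 UMIs of the cells concerned. The 5 uroplakins together had 548 UMIs (20.5 CPM) in P and 25284 UMIs (1245 CPM) in D. All 5 epithelial markers listed were detected in both libraries, and Tyrobp of the leukocyte list and both haemoglobin genes were at 0 UMIs in both. Of the 4 endothelial markers, Cdh5 and Kdr were at 0 in both, whereas P and D held 60 and 50 UMIs of Pecam1 and 78 and 17 of Egfl7. Ptprc had 1 and 2 UMIs, whereas Laptm5 of the 5-gene leukocyte list went from 7 UMIs in P to 400 in D, and Dcn of the 5-gene fibroblast list from 40 to 1234, with Col1a1 at 0 and 10 and Col3a1 at 0 and 19. The list sums were 0.562 and 19.8 CPM (leukocyte), 1.99 and 62.5 CPM (fibroblast), 5.17 and 3.30 CPM (endothelial) and 0.0750 and 0.148 CPM (smooth muscle) in P and D. The part of such cells or of free RNA in the members' levels was not tested, since no cluster of cells known to lack these genes was available. The share of UMIs from ribosomal protein genes was 37.4% in P and 21.4% in D. For 8939 genes counted 100 times or more in P and also in D, the median log2 ratio of D over P was 0.42, and members are given both as measured and with this shift taken off.

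The RefSeq promoter table (GRCm38.p6) matched 5 of the 10 members: Foxa1, Gata3, Elf3, Grhl3 and Klf4. The bases before the RefSeq start site are shown for 4 of them: Foxa1, with the highest ratio of D over P, Klf4, with the lowest, and Elf3 and Grhl3, which were both higher in cells with more uroplakin and squamous UMIs. Bases inside annotated exons of the gene were left out. The Foxa1 stretch lies inside the GENCODE gene, which starts further upstream, at position 57546916, and so is intronic there, whereas the other 3 lie outside their genes. All run 5′ to 3′ on the minus strand, and capitals mark matches, on either strand, to the short cores of the factor families studied: TGTTTNC for forkhead, GATAA for GATA, GGAAG for ETS, CACCC for Krüppel-like and AACNNGTT for grainyhead factors. No marked matches of different motifs overlapped.
Foxa1, chr12:57546122-57546361: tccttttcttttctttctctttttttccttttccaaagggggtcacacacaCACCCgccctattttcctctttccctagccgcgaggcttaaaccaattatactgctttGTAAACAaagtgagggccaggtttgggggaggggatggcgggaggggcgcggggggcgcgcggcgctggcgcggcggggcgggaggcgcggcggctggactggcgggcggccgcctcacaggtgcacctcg
Elf3, chr1:135258569-135258722: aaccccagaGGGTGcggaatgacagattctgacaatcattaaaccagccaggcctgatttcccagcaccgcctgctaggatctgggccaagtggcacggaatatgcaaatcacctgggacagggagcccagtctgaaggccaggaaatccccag
Grhl3, chr4:135573633-135573882: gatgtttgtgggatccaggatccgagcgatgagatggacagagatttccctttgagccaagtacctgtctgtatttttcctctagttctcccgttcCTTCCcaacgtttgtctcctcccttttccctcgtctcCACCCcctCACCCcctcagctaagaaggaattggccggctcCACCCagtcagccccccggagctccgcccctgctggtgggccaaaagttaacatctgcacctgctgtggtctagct
Klf4, chr4:55532476-55532725: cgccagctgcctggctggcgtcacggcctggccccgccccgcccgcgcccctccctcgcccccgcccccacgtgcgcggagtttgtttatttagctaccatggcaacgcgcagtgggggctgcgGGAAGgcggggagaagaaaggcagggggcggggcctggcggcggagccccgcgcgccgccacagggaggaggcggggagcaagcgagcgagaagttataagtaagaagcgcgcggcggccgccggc

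The Foxa1 window held 1 forkhead core, which 17.3% of 32851 promoters hold in a stretch of the same 240 bases, and 1 CACCC core (50.6% of promoters). The shorter Elf3 window of 154 bases held 1 CACCC core (36.0%) and no ETS core (45.3%). The Grhl3 window held 3 CACCC cores, where 52.0% of promoters hold at least 1, and 1 ETS core (64.1%). How many promoters hold 3 was not counted. The Klf4 window held 1 ETS core (64.1%) and no CACCC core. No GATA or grainyhead core stood in any of the 4 windows. These are matches of letters and do not show binding.

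Between the libraries, the members did not move as a block. The pioneer and luminal factors Foxa1 and Gata3 and the forkhead factor Foxq1 were more than 2-fold higher in D, whereas Klf4, a factor of barrier differentiation, was more than 2-fold lower. Trp63 and Elf3 were also lower in D, by less than 2-fold, and the others differed little. Among the 10 members, a level 2-fold or more above that of P was seen in D for 3, against 13.5% of the 10719 genes that passed the same minimum, and the reverse for 1, against 4.73% of those genes. After removal of the shift the counts were 2 (all genes 5.64%) and 3 (8.65%). The median log2 ratio of the members was 0.45, close to the 0.41 of all genes tested, and was 0.03 after the shift was removed. Each P and D value below is a sum over the cells of 1 library, and each 95% interval (exact Poisson for a level, exact conditional binomial for a ratio, Clopper-Pearson for a share of cells) covers counting error only, not variation between cultures. The intervals of levels and ratios pool UMIs over cells, so they leave out variation between cells as well. With 3′ counting, which is not scaled by transcript length, levels of different genes were not compared with each other.

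Foxa1 (ENSMUSG00000035451, GRCm38 chr12:57540628-57546916) is a pioneer factor that opens chromatin for luminal genes. It was at 39.5 CPM (37.1 to 41.9) in P and 120 CPM (115 to 125) in D, a log2 ratio of 1.61 (1.50 to 1.71). In cells thinned at random to 2100 UMIs each (6638 cells of P and 4417 of D), so that depth was equal, a Foxa1 UMI was found in 7.50% (6.88 to 8.16%) and 20.7% (19.6 to 22.0%) of cells, against 13.8% and 34.9% before thinning. After removal of the shift Foxa1 remained 1.18 higher on the log2 scale.

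Gata3 (ENSMUSG00000015619, chr2:9857078-9890034) encodes a zinc finger factor that acts with FOXA1 and PPARγ in luminal urothelium. It was at 101 CPM (97.0 to 105) in P and 247 CPM (240 to 254) in D, a log2 ratio of 1.29 (1.22 to 1.36). This was 0.87 after the shift was removed, that is, under 2-fold. The noncoding gene 9230102O04Rik overlaps Gata3 on the same strand and was counted apart, with 138 UMIs in P and 162 in D against 2689 and 5013 for Gata3. How reads that both genes share were assigned was not tested.

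The epithelial ETS factors parted. Elf3 (ENSMUSG00000003051, chr1:135253575-135258568), known from terminal differentiation of epithelia, was at 216 CPM (210 to 222) in P and 143 CPM (138 to 148) in D, a log2 ratio of −0.59 (−0.66 to −0.53), or −1.02 after the shift was removed. Ehf (ENSMUSG00000012350, chr2:103263433-103303278), its close relative, was at 227 CPM (222 to 233) and 305 CPM (297 to 313), a log2 ratio of 0.42 (0.37 to 0.47), which was the size of the shift itself.

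The grainyhead factors, which maintain junctions and the epithelial barrier, were near the shift as well. Grhl2 (ENSMUSG00000022286, chr15:37233036-37363569) was at 44.3 CPM (41.8 to 46.9) in P and 61.7 CPM (58.3 to 65.2) in D, a log2 ratio of 0.48 (0.36 to 0.59). Grhl3 (ENSMUSG00000037188, chr4:135541888-135573630), the member needed for umbrella cells and skin barrier, had 354 UMIs in P and 316 in D. Its levels were 13.3 CPM (11.9 to 14.7) and 15.6 CPM (13.9 to 17.4), a log2 ratio of 0.23 (0.01 to 0.45). The sign turned when mitochondrial and ribosomal protein genes were left out of the total (−0.11) and when the shift was taken off (−0.19). It also turned in cells without a uroplakin UMI (−0.51 before thinning, −0.35 in thinned cells).

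The Krüppel-like pair went opposite ways. Klf4 (ENSMUSG00000003032, chr4:55527143-55532466) was at 144 CPM (139 to 149) in P and 59.9 CPM (56.6 to 63.4) in D, a log2 ratio of −1.26 (−1.36 to −1.17). Klf5 (ENSMUSG00000005148, chr14:99298691-99315036), which is required for urothelial maturation in the mouse bladder, was at 340 CPM (333 to 347) and 494 CPM (484 to 504), a log2 ratio of 0.54 (0.50 to 0.58), or 0.12 after the shift was removed. Klf5 was detected in 48.4% of thinned P cells and 60.0% of thinned D cells, and Klf4 in 23.0% and 11.1%.

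Foxq1 (ENSMUSG00000038415, chr13:31556134-31560976), a forkhead factor of epithelia, was at 265 CPM (259 to 271) in P and 727 CPM (715 to 739) in D, a log2 ratio of 1.46 (1.41 to 1.50). It was found in 37.6% of thinned P cells and 66.2% of thinned D cells. Trp63 (ENSMUSG00000022510, chr16:25683763-25892102) was at 149 CPM (145 to 154) in P and 77.8 CPM (74.0 to 81.7) in D, a log2 ratio of −0.94 (−1.03 to −0.86), or −1.36 after the shift was removed. It was found in 26.9% and 14.6% of thinned cells. Counting at the 3′ end does not separate the TAp63 and ΔNp63 transcripts, which differ at the start.

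**Figure D1:**
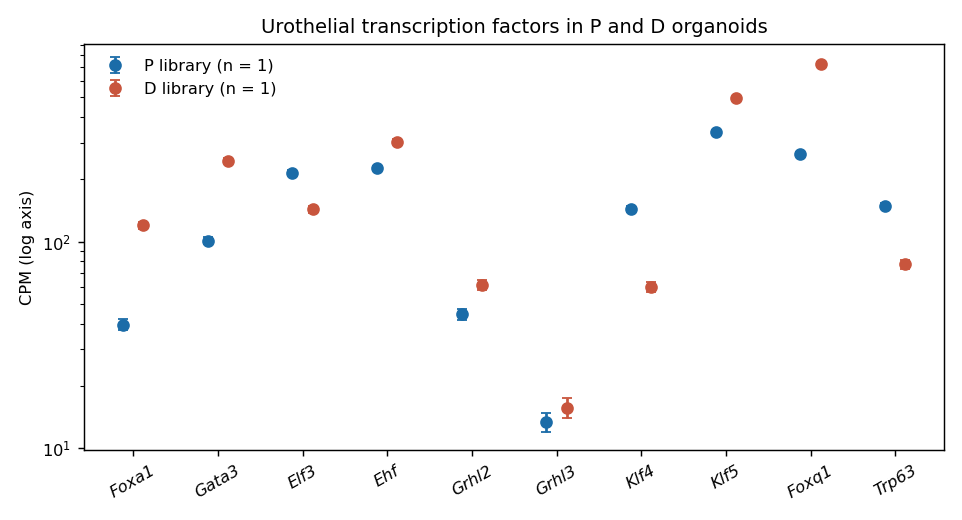
Level of each member in the P (blue) and D (red) library in CPM on a log axis, with exact Poisson 95% intervals over UMIs and n = 1 library per condition. Foxa1, Gata3 and Foxq1 lie well above their P level in D (120 against 39.5 CPM for Foxa1), and Klf4, Trp63 and Elf3 lie below it (59.9 against 144 CPM for Klf4).

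The uroplakin count per cell ordered the D cells, and Trp63 and Elf3 took opposite courses along it. The members and the uroplakin list were chosen with earlier results of these data known. These courses, and the counts below that include both genes, are thus a description and not independent evidence. Of the 4417 thinned D cells, 2073 had no UMI of the 5 uroplakins, 754 had 1, 742 had 2 to 3, 497 had 4 to 7 and 351 had 8 or more. Trp63 was at 115 CPM (105 to 125, 500 UMIs) in cells without a uroplakin UMI, 84.6 CPM at 1, 53.3 CPM at 2 to 3, 24.0 CPM at 4 to 7 and 6.78 CPM (5 UMIs) at 8 or more. The level was lower in every bin than in the one before, and the highest bin was 16.9-fold below the lowest (log2 ratio −4.08, −5.71 to −2.85). Elf3 was at 91.7 CPM (82.9 to 101), 146, 173, 189 and 204 CPM, and so was 2.22-fold higher in the highest bin than in the lowest (log2 ratio 1.15, 0.87 to 1.43). The interval at 0 did not overlap that at 1, and from 1 uroplakin UMI up the intervals of neighbouring bins overlapped. For Trp63 the intervals of neighbouring bins were apart except those of 4 to 7 (15.5 to 35.4 CPM) and 8 or more (2.20 to 15.8 CPM).

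Over the 9 alternatives run, the log2 ratio ranged from −4.41 to −2.77 for Trp63 and from 1.01 to 1.78 for Elf3. In the 8 or more bin Krt8, a luminal keratin, was at 3530.05 CPM against 671 CPM at 0, and Krt5, a basal keratin, at 1350 against 4819 CPM. Cells of the higher bins also differed otherwise: their median depth before thinning was 4285 UMIs against 3043 at 0, and the summed squamous list (Sprr, cornifin, involucrin, loricrin and filaggrin genes) was at 2947 CPM against 490. Among D cells without a squamous UMI, the ratio was 1.78 (0.99 to 2.48) for Elf3 and −2.89 (−8.20 to −0.40) for Trp63, from 31 cells of the highest bin with 18 Elf3 UMIs and 1 Trp63 UMI.

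The other members split along the same axis. Counting Elf3 and Trp63, 2 of 10 were at least 2-fold higher in the highest bin (Elf3 and Grhl3, all genes 4.59%) and 2 were at least 2-fold lower (Trp63 and Grhl2, all genes 10.5%), with a median of −0.22 for the members and −0.12 for the 7837 genes with at least 50 UMIs in both bins together. Grhl3 was at 10.1, 13.3, 18.6, 17.2 and 23.1 CPM from 0 to 8 or more uroplakin UMIs, a log2 ratio of 1.19 (0.29 to 2.03) over 17 and 44 UMIs, and Grhl2 went the other way, from 64.5 CPM at 0 to 29.8 CPM (−1.11, −1.81 to −0.49). The intervals of these grainyhead factors did not overlap. Grhl2 was under 2-fold lower before thinning (−0.85) and with a highest bin of 4 or more UMIs (−0.82). Among D cells without a squamous UMI, Grhl2 was at −0.08 (−1.97 to 1.31) from 4 UMIs in the highest bin and Grhl3 at 2.28 (−0.90 to 4.40) from 2, so that both intervals included 0 and overlapped.

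Foxq1 was at 509 CPM in cells without a uroplakin UMI and 802 CPM in the highest bin, a log2 ratio of 0.65 (0.52 to 0.79), and peaked at 890 CPM in cells with 4 to 7. Foxa1 was at 107 and 136 CPM (0.34, 0.01 to 0.65). This interval spanned 0 with a second random thinning (0.20, −0.14 to 0.52), so that a gradient of Foxa1 within D was not detectable with certainty at this depth. Gata3 was at 237 and 202 CPM (−0.23, −0.49 to 0.02) and Ehf at 289 and 251 CPM (−0.20, −0.43 to 0.02). Both intervals include 0. Klf5 was at 480 CPM at 0, 576 CPM at 2 to 3 and 320 CPM at 8 or more, so that it was highest in the middle bins and lower in the highest bin than at 0 (−0.58, −0.78 to −0.39). Klf4 was at 61.1 CPM at 0 and 35.3 CPM at 8 or more (−0.79, −1.43 to −0.21). Foxa1 and Gata3, more than 2-fold higher in D than in P, were thus 1.26-fold higher and 1.17-fold lower in D cells with 8 or more uroplakin UMIs than in those with none. Among D cells without a squamous UMI the Gata3 ratio had the opposite sign, at 0.46 (−0.24 to 1.09), with an interval that again included 0, and those of Klf4 (0.10, −1.80 to 1.49) and Klf5 (−0.03, −0.61 to 0.50) included 0 as well.

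In P only 170 of 6638 thinned cells (2.56%) had a uroplakin UMI, 232 UMIs in all. Elf3 was at 459 CPM (392 to 535) in these cells and 198 CPM (191 to 206) in the others, a log2 ratio of 1.21 (0.98 to 1.44). Trp63 was at 64.4 CPM (40.8 to 96.7) against 166 CPM (159 to 173), a ratio of −1.37 (−2.03 to −0.78). These were the 2 members past 2-fold, 1 in each direction, where all genes had 7.13% higher and 14% lower. Foxq1 (0.50, 0.24 to 0.76) and Gata3 (0.50, 0.07 to 0.90) were higher in uroplakin-positive P cells, and the intervals of the other 6 members included 0. The P cells with a uroplakin UMI also held more squamous UMIs, at 3633 CPM against 1004.

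**Figure D2:**
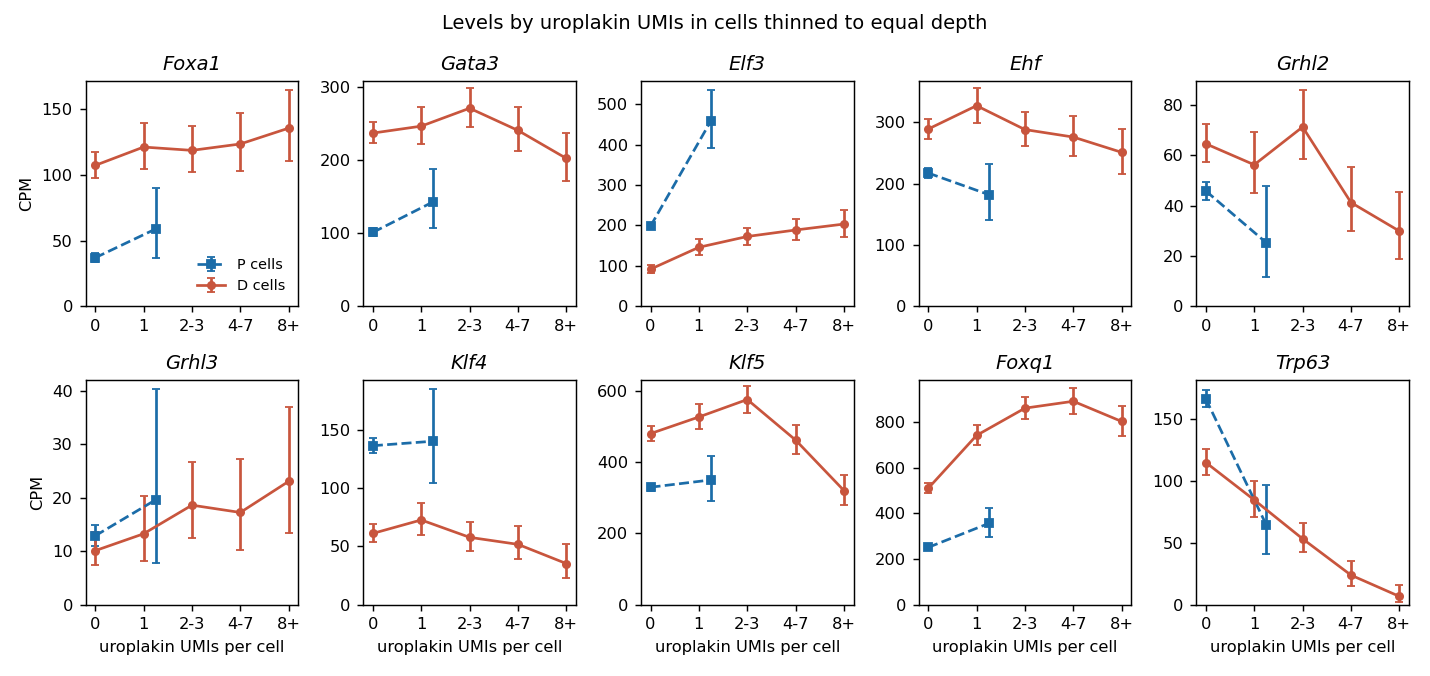
CPM of each member (exact Poisson 95% intervals) in cells thinned to 2100 UMIs, by uroplakin UMIs per cell, with D in 5 bins (red circles) and P in cells with 0 and with 1 or more (blue squares, the second drawn beside 1). In D, Trp63 goes down from 115 to 6.78 CPM and Elf3 up from 91.7 to 204 CPM, while the Elf3 level of P is higher than that of D at both ends.

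Elf3 was thus higher in uroplakin-positive cells of each library but lower in the library with more of them. In cells without a uroplakin UMI it was at 198 CPM in P and 91.7 CPM in D (log2 ratio −1.11, −1.27 to −0.96), and in cells with one at 459 and 172 CPM (−1.42, −1.66 to −1.17). Both differences were larger than the −0.59 over all kept cells. Trp63 showed the reverse: it was at 166 and 115 CPM in uroplakin-negative cells (−0.53, −0.68 to −0.39) and at 64.4 and 50.2 CPM in uroplakin-positive cells (−0.36, −0.98 to 0.32), both smaller than the −0.94 over all kept cells. Foxa1 kept most of its difference between D and P in uroplakin-negative cells, at 36.9 and 107 CPM (1.54, 1.36 to 1.72), as did Gata3 at 101 and 237 CPM (1.23, 1.11 to 1.35) and Klf4 at 136 and 61.1 CPM (−1.16, −1.35 to −0.97). For Foxq1 the ratio in these cells was 1.02 (0.94 to 1.10). The values by uroplakin detection in this paragraph so far are of thinned cells. Before thinning, cells without a uroplakin UMI gave 0.81 (0.75 to 0.88) for Foxq1, which is under 2-fold. They gave −1.44 (−1.58 to −1.30) for Elf3 and −0.26 (−0.38 to −0.15) for Trp63. The uroplakin-positive cells of both libraries were not equal in uroplakins, with 232 UMIs in 170 cells of P and 10241 in 2344 cells of D. The uroplakin list also had other contents in the libraries. Over all kept cells, Upk1a made up 59.7% of its UMIs in P and 38.3% in D, Upk1b 33.0% and 30.3%, and Upk3a 0.730% and 27.2%. Upk3a was found in 1 of the 170 P cells, so positive cells of P and D cannot be taken as the same state.

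Within single cells, those with a Trp63 UMI held an Elf3 UMI less often than those without one, and the intervals of both shares were apart in each library. In P, 21.5% (19.6 to 23.4%) of the 1784 thinned cells with a Trp63 UMI had an Elf3 UMI, against 33.2% (31.9 to 34.5%) of the 4854 without. In D the shares were 16.3% (13.5 to 19.4%) of 644 cells and 23.3% (21.9 to 24.7%) of 3773. The Elf3 level of Trp63-positive over Trp63-negative cells was −0.85 (−0.99 to −0.70) on the log2 scale in P and −0.60 (−0.88 to −0.33) in D. For Foxa1, Gata3 and Grhl2 the same ratio had an interval that included 0 in both libraries, for example 0.00 (−0.17 to 0.17) for Gata3 in P. Foxq1 was lower in Trp63-positive cells of both, at −0.32 (−0.43 to −0.20) in P and −0.22 (−0.33 to −0.11) in D. Ehf was lower in both as well, at −0.14 (−0.26 to −0.02) in P and −0.29 (−0.46 to −0.13) in D. Grhl3 (−0.84, −1.45 to −0.28), Klf4 (−0.31, −0.47 to −0.16) and Klf5 (−0.11, −0.20 to −0.01) were lower in Trp63-positive cells of P. The D intervals of Grhl3, Klf4 and Klf5 included 0.

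Cells sorted by both transcripts differed in uroplakins. In D, 878 cells had Elf3 and no Trp63, and 69.4% (66.2 to 72.4%) of them had a uroplakin UMI. Of the 539 D cells with Trp63 and no Elf3, 31.0% (27.1 to 35.1%) had one. The 105 cells with both, at 49.5% (39.6 to 59.5%), and the 2895 with neither, at 52.4% (50.5 to 54.2%), lay between. In P the shares were 5.46% (4.40 to 6.69%) of 1611 cells with Elf3 alone and 0.857% (0.443 to 1.49%) of 1401 cells with Trp63 alone. A cell without a UMI of a gene cannot be taken to lack its transcript at this depth, where the median thinned cell had a UMI of 2 members in P and of 3 in D.

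**Figure D3:**
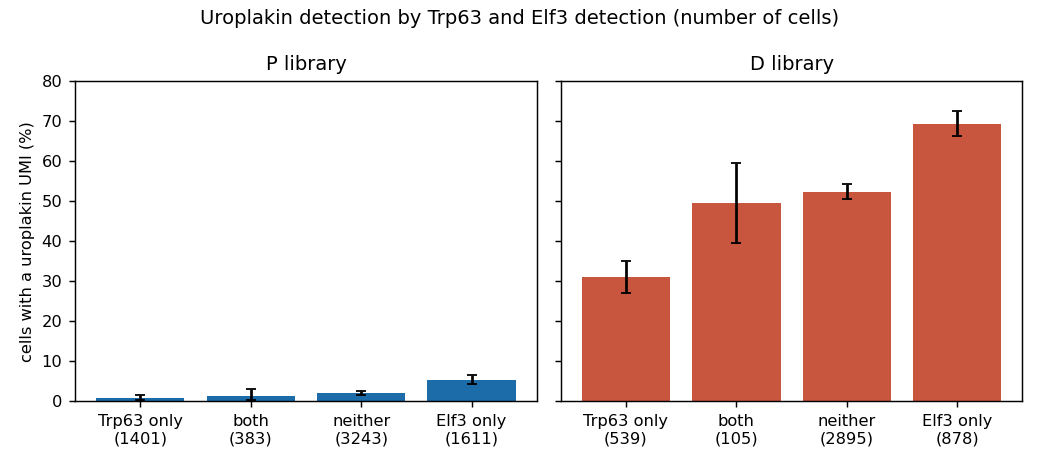
Share of thinned cells with at least 1 uroplakin UMI (bars, Clopper-Pearson 95% intervals) by detection of Trp63 and Elf3 in P (left) and D (right), with the number of cells in parentheses. In D the share is 31.0% with Trp63 alone and 69.4% with Elf3 alone, and in P 0.857% and 5.46%.

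Since P had few uroplakin-positive cells, its cells were also ordered by squamous UMIs and by UMIs of basal adhesion genes (integrins, Col17a1, Dst and Lamb3, which fix basal cells to the basement membrane). Cells with 4 or more squamous UMIs were compared with cells without one. In P, 3 members were at least 2-fold higher in squamous-high cells (Elf3, Grhl3 and Klf4, all genes 6.85%) and 1 was at least 2-fold lower (Trp63, all genes 14.5%). Elf3 was at 139 CPM in the 3615 cells without a squamous UMI, 152 CPM at 1, 252 CPM at 2 to 3 and 430 CPM in the 1172 cells with 4 or more, a log2 ratio of 1.63 (1.51 to 1.76). Grhl3 was at 7.51, 11.5, 16.9 and 29.3 CPM (1.96, 1.44 to 2.49) and Klf4 at 105, 137, 163 and 217 CPM (1.05, 0.89 to 1.21). Trp63 was at 204, 164, 103 and 74.8 CPM (−1.45, −1.68 to −1.23). All 4 were ordered without exception over the 4 groups. Foxq1 was also higher, from 201 to 370 CPM (log2 ratio 0.88). These P values were nearly the same in cells without a uroplakin UMI, at 1.59 for Elf3 and −1.35 for Trp63.

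In D, 1 member was at least 2-fold higher in squamous-high cells (Grhl3, all genes 2.23%) and 1 at least 2-fold lower (Trp63, all genes 3.19%). Elf3 was at 110 CPM without a squamous UMI and 178 CPM with 4 or more (0.69, 0.46 to 0.92), Grhl3 at 8.43 and 23.1 CPM (1.45, 0.71 to 2.20) and Trp63 at 93.9 and 36.9 CPM (−1.35, −1.78 to −0.94). Klf4 was at 63.2 and 48.1 CPM (−0.40, −0.80 to −0.01), the opposite sign to P. Uroplakins were higher in squamous-high D cells too, at 3065 CPM against 480. Among D cells without a uroplakin UMI the ratio was 0.46 for Elf3 (lower bound −0.12), −0.50 (−1.17 to 0.11) for Trp63 and −0.01 (−0.84 to 0.72) for Klf4 and 0.67 (−1.77 to 2.51) for Grhl3, the last from 3 and 14 UMIs, and all 4 intervals included 0. The squamous list also had other contents in the libraries, since Sprr1a made up 54.7% of its UMIs in P and 78.2% in D, Flg 16.8% in P and 0.00478% in D, and Sprr1b had no UMI in either.

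Basal adhesion UMIs gave the opposite order. In P cells with 4 or more such UMIs, Trp63 was at 254 CPM against 93.7 CPM in cells with none (1.44, 1.25 to 1.63), whereas Elf3 was at 140 against 294 CPM (−1.07, −1.25 to −0.90) and Grhl3 at 2.75 against 19.6 CPM (−2.84, −4.20 to −1.73, 7 and 77 UMIs). These were the members past 2-fold, 1 higher (all genes 7.68%) and 2 lower (5.99%). In D, Trp63 was at 129 against 44.4 CPM (1.53, 1.20 to 1.88), the 1 member past 2-fold higher (all genes 6.43%). The 3 past 2-fold lower (4.81%) were Elf3, at 48.0 against 196 CPM (−2.03, −2.38 to −1.69), Grhl3, at 5.14 against 20.1 CPM (−1.97, −3.18 to −0.92), and Foxq1, at 367 against 820 CPM (−1.16, −1.29 to −1.03). With a second random thinning the Foxq1 ratio was −1.39, outside that interval. Among D cells without a uroplakin UMI the Elf3 ratio was −2.16 (−2.65 to −1.68) and that of Trp63 0.70 (0.24 to 1.19). Gata3 did not share the course of Elf3: it was higher in adhesion-high P cells, at 117 against 90.6 CPM (0.37, 0.14 to 0.59), and at 240 against 248 CPM in D (−0.04, −0.23 to 0.14). Ehf was lower in adhesion-high cells of P (−0.70, −0.87 to −0.52) and, by less, of D (−0.21, −0.38 to −0.04).

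**Figure D4:**
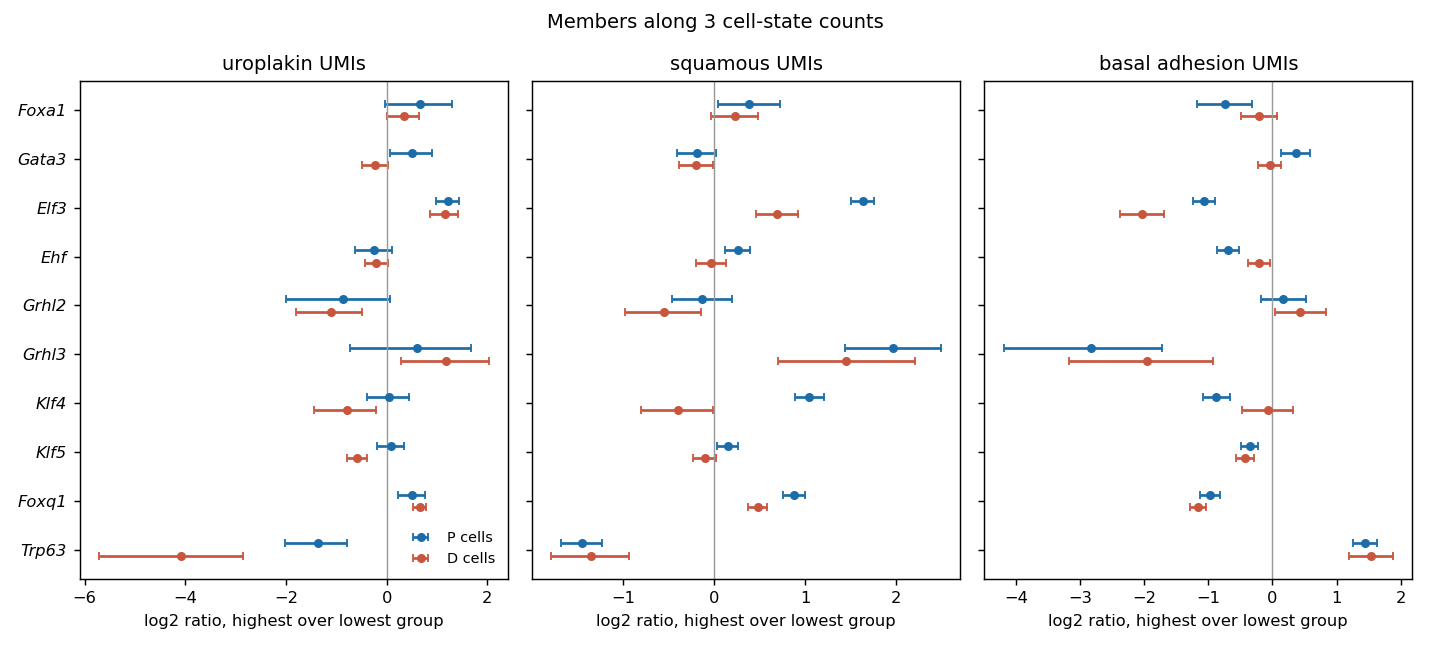
Log2 ratio of each member between the highest and the lowest group of thinned P (blue) and D (red) cells by uroplakin, squamous and basal adhesion UMIs, with exact conditional binomial 95% intervals and a separate scale for each panel; the highest uroplakin group is 1 or more UMIs in P and 8 or more in D, and for the other 2 counts 4 or more. Trp63 lies below 0 in the uroplakin and squamous panels and above 0 in the adhesion panel in both libraries, and Elf3 and Grhl3 lie on the other side, with the interval of Grhl3 by uroplakin UMIs in P including 0.

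Klf4 is also switched on by stress and serum, so its levels are given beside 14 early-response genes (Fos, Jun, Egr1, Atf3 and others), which dissociation of tissue is known to raise. Their sum was 1602 CPM in P and 3381 CPM in D, and 8 of the 14 passed 2-fold toward D (all genes 13.5%) and 0 toward P (4.73%), or 6 (5.64%) and 0 (8.65%) after the shift was removed. Klf4 went with these genes from cell to cell: in P it was at 110 CPM in cells with 0 to 2 early-response UMIs, 135 CPM at 3 to 4 and 182 CPM at 5 or more (0.72, 0.57 to 0.88), and in D at 35.6, 63.3 and 82.6 CPM over cells with 0 to 4, 5 to 9 and 10 or more (1.21, 0.88 to 1.55). Between the libraries, its level was lower in D, which held more early-response RNA. In cells at or below the median early-response share of each library, the log2 ratio of D over P was −1.48 (−1.64 to −1.33). This cut was set within each library, so the cells were not matched between P and D. Most other members were higher with early-response UMIs as well. Klf5 was so by 0.65 (0.55 to 0.76) in D and 0.26 (0.16 to 0.36) in P. Foxq1 was higher by 0.50 (0.41 to 0.59) in D and 0.42 (0.31 to 0.54) in P, and Grhl2 by 0.46 and 0.32. Grhl3 (0.73), Elf3 (0.39) and Ehf (0.35) were higher in P, and their D intervals included 0. Gata3 (0.43) and Foxa1 (0.31) were higher in D, and their P intervals included 0. Trp63 was lower with early-response UMIs in P (−0.45, −0.60 to −0.30), and its interval in D included 0 (0.10, −0.17 to 0.37). In D the early-response sum was 3620 CPM in cells without a uroplakin UMI and 2156 CPM in the highest uroplakin bin, where Klf4 and Klf5 were lowest. The part of these genes in the members' levels was not tested.

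Cycling cells, with at least 2 of 12 proliferation genes detected, made up 336 of 6638 thinned cells in P and 10 of 4417 in D. In P, cycling cells held Elf3 at 89.3 CPM against 211 CPM in the others (−1.24, −1.63 to −0.88), Trp63 at 213 against 161 CPM (0.40, 0.15 to 0.64) and Gata3 at 132 against 100 CPM (0.39, 0.07 to 0.70). Lower in cycling cells were also Grhl3 (−1.67, −3.96 to −0.10, from 3 UMIs), Foxq1 (−0.51, −0.77 to −0.25), Klf4 (−0.38, −0.73 to −0.04), Klf5 (−0.36, −0.59 to −0.15) and Ehf (−0.27, −0.53 to −0.01), whereas the intervals of Foxa1 and Grhl2 included 0. The squamous sum was 179 CPM in cycling cells against 1119 CPM in the others. The 10 cycling cells of D were too few to describe.

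A list of 33 other epithelial transcription factors stood beside the members, of which 30 had at least 100 UMIs. Foxa2, Foxa3 and Spdef, known from endoderm and glands, had at most 1 UMI in all. Of the 30, 9 passed 2-fold toward D (all genes 13.5%) and 3 toward P (4.73%), against 1 (5.64%) and 5 (8.65%) after the shift was removed, and their median log2 ratio was 0.36 (all genes 0.41). As measured, past 2-fold toward D were Pparg, the nuclear receptor of luminal differentiation, from 12.2 to 32.7 CPM (1.42, 1.23 to 1.62), Gata2 (1.40), Ovol2 (1.40), the T-box factors Tbx3 (1.35) and Tbx2 (1.04), Mecom (1.23), Klf6 (1.15), the grainyhead factor Grhl1 (1.08) and the ETS factor Elf5, from 3.86 to 7.73 CPM. With the shift removed, only Pparg of these 9 still passed 2-fold. Pparg, singled out for its known role, was also higher with uroplakins within D, at 14.0 CPM at 0 and 55.6 CPM in the highest bin (1.99, 1.38 to 2.58). It was higher with squamous UMIs too, by 2.73 (2.16 to 3.33) in P and 1.55 (1.09 to 2.01) in D. With basal adhesion UMIs Pparg was lower, at −2.73 (−3.99 to −1.69) in P and −2.92 (−4.02 to −1.98) in D. Higher in P were Tfap2c (−1.12), Prdm1 (−1.07) and Barx2 (−1.03). Family members differed within each family: Klf6 and Klf4 were past 2-fold in opposite directions, and Grhl1 was past 2-fold where Grhl2 and Grhl3 were not, but with the shift removed Klf6 (0.73) and Grhl1 (0.66) were under 2-fold.

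Likeness was measured as Pearson's r of log2(CPM + 1) over 9 groups of thinned cells, 4 of P by squamous UMIs and 5 of D by uroplakin UMIs, among 7817 genes. The groups of 1 library share its depth and base level, so r is a description. For Elf3 the highest were Acp5 (0.95), Psmd8 (0.95) and Cblc (0.95), with 34 genes above 0.9. For Trp63 they were Mical2 (0.98), Sox15 (0.98) and Arhgap22 (0.97), with 92 above 0.9. For Foxa1 they were Specc1l, Bola3 and Cpt1a (each 0.996), with 1080 genes above 0.9. The names depend on the random thinning: with a second draw, 1 of the 3 for Elf3 and 0 of the 3 for each of Trp63 and Foxa1 were again among the highest 3, although the 9 genes kept an r of 0.84 or more. Among the members, Foxa1 went with Foxq1 (0.96) and Gata3 (0.95) and against Klf4 (−0.87), Elf3 had an r of 0.82 with Grhl3, or 0.52 with the second thinning, and Elf3 and Trp63 had an r of −0.26 over the 9 groups, both having a lower level in D than in P.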

How the data were processed

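Single-cell RNA-seq counts came from 1 P and 1 D library of mouse urothelial organoids. Per the labels and the study's methods, the authors made the libraries with the 10x 3′ v3 kit and ran bcl2fastq 2.19.0 and Cell Ranger 3.0.2 on GRCm38 (mm10). The deposited matrices hold raw UMI counts per gene and barcode, with no normalization.

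The 10 members and all gene lists were chosen with earlier results of these data known. Cells with over 800 genes and at most 12% mitochondrial UMIs were kept. UMIs were summed over cells and given as CPM with exact 95% intervals, and differences of 2-fold or more were counted among genes with 100 or more UMIs in P and D together (50 between cell groups). With 1 library per condition no test was made, and cells were not used as replicates of a condition. The intervals of shares take each cell as a draw within its library, so intervals that are apart or include 0 describe that library only. For shares and cell groups, each cell was thinned to 2100 UMIs, and 180 shallower P cells and 479 D cells were left out. Squamous and adhesion groups were 5 equal quantiles with tied cells kept together, which left 4 squamous groups in P, so likeness was taken over 9 groups and not the planned 10. Named genes were the members, listed factors past 2-fold, the 3 genes most like Elf3, Trp63 and Foxa1, and list markers beside a result. The doublet caller scrublet (scanpy 1.11.5) marked 0 cells of either library and had not worked, so the 5% of cells with the highest score were left out as an alternative. The other alternatives were filters, scalings, a mean over cells, subsets of cells, bin limits and a second thinning, and cells without a squamous or without a uroplakin UMI along the other count were added after the data had been seen. Python 3.11.15, numpy 2.4.6, scipy 1.17.1 and pandas 2.3.3 were used. The ratios, intervals and thinning were tested on simulated data. Gene positions are from GENCODE on GRCm38.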

Additional observations from a re-analysis of the deposited data

Results flagged for a closer look

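Klf4 went opposite ways with squamous UMIs in the libraries, at a log2 ratio of 1.05 between the highest and the lowest group in P and −0.40 in D. The difference between the ratios was not tested, and the interval in D ended at −0.01.

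Barcodes that the filter left out, 1376 of P and 2079 of D, also held the members. In those of D, 6 members were above the level in those of P per 1000000 non-mitochondrial UMIs, with intervals apart: Foxa1 at 145 against 49.7, Gata3 at 305 against 137, Ehf at 459 against 204, Grhl2 at 140 against 60.2, Klf5 at 567 against 380 and Foxq1 at 604 against 257. Below the P level, also with intervals apart, were Elf3 at 145 against 210, Klf4 at 87.4 against 135 and Trp63 at 176 against 258. The intervals of Grhl3 overlapped. Grhl2 was at 66.4 and Ehf at 328 in the kept D cells on the same scale, so both were higher in the barcodes left out. Trp63 was higher in left-out than in kept barcodes of both libraries, at 258 against 159 in P and 176 against 83.7 in D.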

How the results depend on the processing

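Of 333 alternative values for 65 results, 324 had the sign of the value reported. Grhl3 between D and P turned from 0.23 to −0.11 without mitochondrial and ribosomal protein genes, −0.19 with median ratio scaling and −0.51 in cells without a uroplakin UMI. With uroplakins in D, Klf4 turned to 0.10, Gata3 to 0.46 and Ehf to 0.04 among cells without a squamous UMI. Grhl2 along adhesion UMIs in P turned from 0.17 to −0.25 with a second thinning. Along squamous UMIs in D, Ehf turned from −0.03 to 0.11 and Klf5 from −0.10 to 0.16 among cells without a uroplakin UMI. The members' median of 0.45 was 0.11 without mitochondrial and ribosomal protein genes, 0.028 with median ratio scaling and 0.35 in cells without a uroplakin UMI. For all ratios of D over P given here, cells without a uroplakin UMI were chosen before thinning. The count at least 2-fold higher in P was 2 without mitochondrial and ribosomal protein genes, 3 with median ratio scaling, 2 in cells without a uroplakin UMI and 2 in cells at or below the median early-response share, against 1 as reported. Trp63 with uroplakins in D was −2.77 with a highest bin of 4 or more UMIs, and Elf3 was 1.78 among cells without a squamous UMI. Elf3 in Trp63-positive P cells was −0.61 unthinned. Among D cells without a uroplakin UMI, Elf3 along squamous UMIs was 0.46 and Trp63 −0.50, and Trp63 along adhesion UMIs was 0.70. Causes were not tested. No paired analysis was possible because each condition has 1 library. Counts in some groups were low: Trp63 had 5 UMIs in the highest uroplakin bin of D and Grhl3 17, and Grhl3 had 7 in the uroplakin-positive cells of P.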
